A study of Mus musculus with 3 samples.

Results

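The 37 adipogenic and lipid storage genes described here were taken by name from 21887 protein-coding genes on placed mouse chromosomes, and ZFP410 binding was described at each of them. They comprise 15 genes of transcription factors that drive or restrain fat cell formation, 18 genes of lipid enzymes, fatty acid handling and droplet proteins, and 4 genes of secreted fat cell hormones and factors. ZFP410 is a zinc finger protein that binds DNA, and it was mapped by CUT&Tag, an assay in which a transposase guided by an antibody inserts sequencing adapters into the DNA beside the bound protein. The induced library came from brown preadipocytes kept for 3 days in differentiation medium for brown adipocytes and was made with a ZFP410 antibody. The untreated library used the same antibody on cells without that medium, and the third library used control IgG on untreated cells. All 3 came from Lin- CD29+ CD34+ Sca1+ cells sorted from brown fat of male wild-type C57BL/6 mice. Each group held 1 library, how many animals were pooled is not given in the sources used here, and peak lists do not measure expression, so the cell type was not checked against its markers. The values compare libraries, with no replicate check and no p-value. Intervals of ratios cover the counting error of fragments only. Those of shares and densities treat genes or summits as independent draws. No interval covers variation between libraries of a group.

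Fat cell formation runs in waves. Early factors such as Egr2 (also called Krox20), Klf4 and Klf5, and signal-driven Stat5a and Stat5b, precede the nuclear receptor PPARγ and the factor C/EBPα. PPARγ, with its partner RXR, and C/EBPα switch on the genes of lipid storage. Fatty acids are then taken up with the help of Lpl, Cd36 and Fabp4, made by Acaca, Fasn and Scd1 under control of Srebf1 and Mlxipl, joined to glycerol by Gpam, Agpat2 and the Dgat enzymes, and held in droplets coated by perilipins. ZFP410 is known from erythroid cells for its strong and selective control of Chd4, a gene of the NuRD remodelling complex.

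The deposited peak lists held 7475 induced, 3256 untreated and 480 IgG peaks. A peak's summit fragments are the DNA fragments stacked at its highest point, and the median peak held 7, 4 and 4 of them. The lowest number called was 4 in the induced, 3 in the untreated and 2 in the IgG list. Genome-wide background was 2.24 times as high in the induced as in the untreated library. Depth, inferred from the peak lists and not from read totals, came to 2.01 times as high. A deeper induced library makes weak sites easier to call there. Numbers expected in the other library, given with single sites, are fragment numbers scaled by 2.24.

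The 2 members with a ZFP410 summit inside a RefSeq promoter window are shown first, since there binding met a known start, and Egr2 is shown by the window whose start is nearest to the induced summit. The RefSeq promoter table (build GRCm38.p6, whose coordinates are those of mm10) covers 250 bases before to 50 after each start. It held 31 of the 37 genes, and Dgat1, Dgat2, Fabp4, Klf5, Lpl and Scd1 had no entry. Capitals mark the 21 bases centred on the induced summit, cut short by the window's end at Fasn.
Fasn, chr11:120824498-120824797, minus strand: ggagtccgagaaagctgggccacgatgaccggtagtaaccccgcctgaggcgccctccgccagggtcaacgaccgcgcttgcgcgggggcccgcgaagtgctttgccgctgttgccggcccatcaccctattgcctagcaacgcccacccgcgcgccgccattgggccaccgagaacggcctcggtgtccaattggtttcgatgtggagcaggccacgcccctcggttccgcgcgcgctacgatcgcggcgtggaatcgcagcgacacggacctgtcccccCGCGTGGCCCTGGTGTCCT
Egr2, chr10:67537619-67537918, plus strand: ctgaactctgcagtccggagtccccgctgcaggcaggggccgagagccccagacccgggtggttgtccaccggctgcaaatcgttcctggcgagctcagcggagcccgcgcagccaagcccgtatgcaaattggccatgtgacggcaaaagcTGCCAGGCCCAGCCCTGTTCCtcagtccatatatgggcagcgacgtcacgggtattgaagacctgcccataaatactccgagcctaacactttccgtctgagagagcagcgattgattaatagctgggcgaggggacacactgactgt
The Fasn window is the richer in CpG, with 39 CpG in 300 bases against 19 in the Egr2 window. The median coding gene with an entry had 13, and the median of the 1555 coding genes with an induced summit within 1 kb of a start had 23.

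Within 1 kb of a RefSeq start, 2 of the 31 genes with an entry had an induced summit, Fasn and Egr2, against 8.89% of coding genes with an entry. In the untreated list Egr2 alone had one, against 3.94%.

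All windows were searched on both strands for the letters CCCATAA, taken from the binding motif known for the human protein. A second search, also on both strands, used CATCCCA, the part of that motif that overlaps the first by 4 letters. The Egr2 window held CCCATAA once, from its base 218 on, with the induced summit at base 163. The same site lies in 3 overlapping Egr2 windows, and no other of the 50 windows of members held it. Of all 21263 windows of coding genes 2.41% held CCCATAA. The letters CATCCCA were found in 1 window of the members, at Plin4, which had no peak within 50 kb, and in 4.41% of all windows. A match describes letters and not a bound site.

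Summits within 1 kb of a gene end were about as frequent at these genes as at coding genes in general. In the induced list 3 of the 37 had such a summit, Fasn, Dgat1 and Dgat2, against 8.43% of all coding genes (1846). That is 8.11% (95% Wilson interval 2.80 to 21.3). In the untreated list 2 had one, Dgat1 and Klf5, against 3.73% of coding genes (816). Only Dgat1 was in both lists, where 2.40% of coding genes were. No member had an IgG summit at a gene end, against 0.0366% of coding genes.

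Summits inside genes, over 1 kb from both ends, were found at 8 members in the induced list, or 21.6% (11.4 to 37.2), against 8.21% of coding genes. The members were Ebf1, Egr2, Rxra, Stat5b, Cd36, Fabp4, Acaca and Gpam. In the untreated list there were 3, Ebf1, Egr2 and Stat5b, or 8.11% (2.80 to 21.3), against 4.36% of coding genes. All 3 had an inside summit in both lists, as 2.77% of coding genes did. The induced interval lay above the share of all coding genes, and the untreated one, on 3 genes, included it. Members were chosen with earlier results of these data known, so the intervals do not test for an excess. Members were of usual length, with a median of 18.8 kb against 17.2 kb, but the occupied ones included long genes, with 390.0 kb at Ebf1 and 272.0 kb at Acaca.

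Counted per length, the 1.82 Mb of the members' gene bodies held 13 induced summits, or 7.16 per Mb (exact Poisson interval 3.81 to 12.2), against 3.22 per Mb over all coding gene bodies. Of the 13, 3 lay in Ebf1 and 2 in Egr2. A Poisson interval takes summits as independent and is too narrow where they cluster. The same gene bodies held 5 untreated summits, or 2.75 per Mb (0.894 to 6.43), against 1.53 per Mb over all. With 50 kb added to each side the members stood at 5.45 induced summits per Mb (3.65 to 7.83), against 3.34 over all coding genes, and at 3.20 untreated ones (1.86 to 5.12), against 1.54. Among these induced summits 3 came from a single group beside Dgat2.

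**Figure D1:**
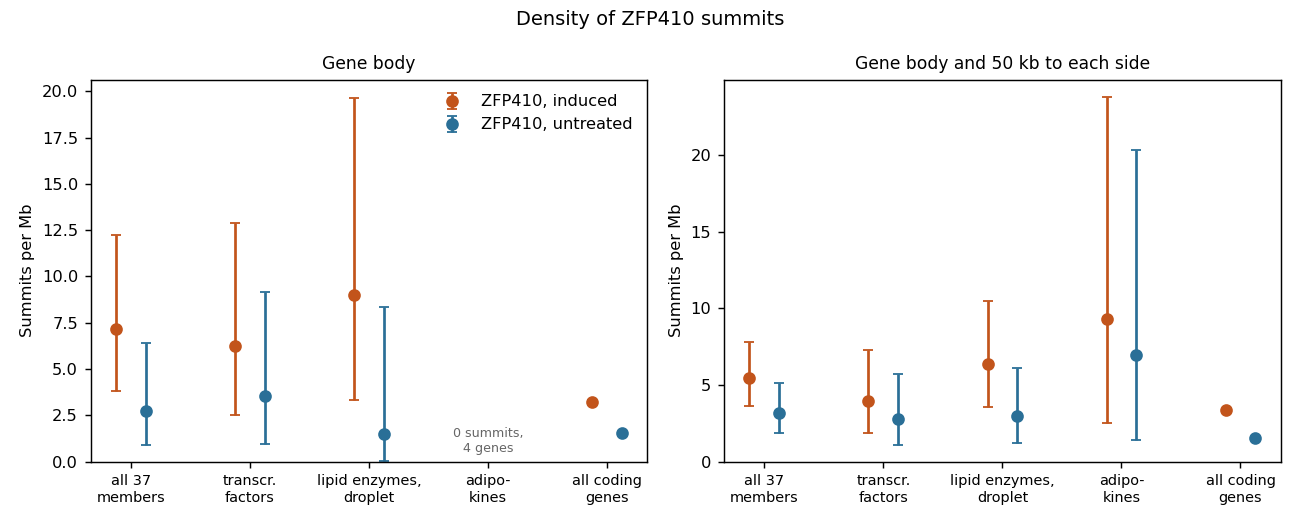
Density of ZFP410 summits (per Mb) in gene bodies (left) and in gene bodies with 50 kb to each side (right), for the induced and the untreated list; points are densities and bars 95% exact Poisson intervals. The 37 members stood at 7.16 induced and 2.75 untreated summits per Mb of gene body, against 3.22 and 1.53 over all coding genes.

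Within 50 kb, gene bodies included, 19 members had an induced summit, 16 an untreated one and 0 an IgG one. Coding genes had one in 39.9%, 23.5% and 1.72% of cases. The shares of the members were 51.4% induced (35.9 to 66.6) and 43.2% untreated (28.7 to 59.1). In both ZFP410 lists there were 12 members, or 32.4% (19.6 to 48.5), against 18.1% of coding genes. Of these, 6 had overlapping peaks in the 2 lists, and the others had different peaks. No share of coding genes is given for overlapping peaks. The median member lay 48.2 kb from the nearest induced summit and 67.3 kb from the nearest untreated one, while the median coding gene lay 82.2 and 192.9 kb away.

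**Figure D2:**
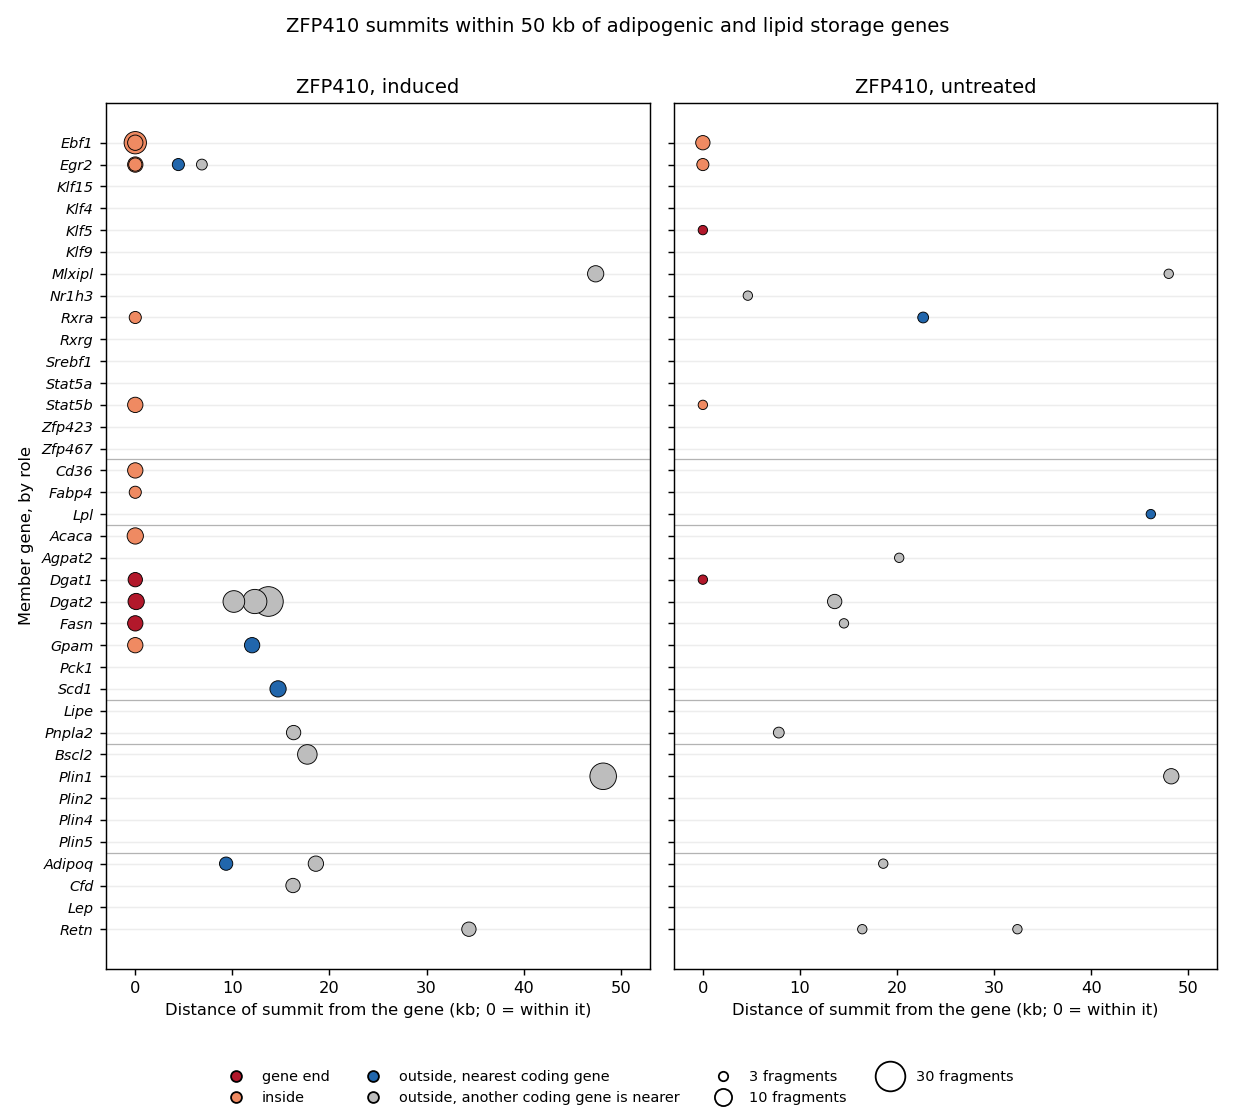
Every ZFP410 summit within 50 kb of a member, by distance from the gene in kb (0 is within the gene), in the induced list (left) and the untreated list (right); circle area follows summit fragments and colour the location. The 3 induced gene-end summits are at Dgat1, Dgat2 and Fasn, and most summits outside the genes are grey, with another coding gene nearer.

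Most of the summits outside the genes were nearer to a neighbour. Of 15 induced summits outside the member, 11 had another coding gene nearer, and of 12 untreated ones 10 did. Among the 15 induced summits 7 lay within 1 kb of an end of another coding gene, at Rfc4 near Adipoq, Hnrnpul2 near Bscl2, Med16 near Cfd, Uvrag near Dgat2, Ado near Egr2, Baz1b near Mlxipl and Xab2 near Retn. Of the 12 untreated ones 4 did, at Rfc4, Baz1b, Pidd1 near Pnpla2 and Trappc5 near Retn. A member was the nearest coding gene of an intergenic summit in 4 cases in the induced list, Adipoq, Egr2, Gpam and Scd1, against 5.82% of coding genes. In the untreated list this held for 2, Lpl and Rxra, against 2.94%.

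Of the 15 transcription factor genes 0 had an induced gene-end summit and 4 an induced summit inside (Ebf1, Egr2, Rxra, Stat5b), against 8.43% and 8.21% of coding genes. In the untreated list 1 had a gene-end summit (Klf5) and 3 had one inside (Ebf1, Egr2, Stat5b), against 3.73% and 4.36%. Egr2 counted as inside by its annotated span, but had a summit within 1 kb of a RefSeq start in both ZFP410 lists. At an end or inside, 4 of 15 were thus listed in each library, with Rxra in the induced and Klf5 in the untreated list alone. That is 26.7% (10.9 to 52.0), against 15.8% of coding genes in the induced and 7.82% in the untreated list. At a −log10 q of 5 or more the induced list kept 3 and the untreated list Ebf1 alone, against 9.01% and 2.37% of coding genes.

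Ebf1, which encodes an early B cell factor that also promotes fat cell formation, held the strongest site inside any member. The induced peak at chr11:44769313-44769839 had 17 fragments and ranked 348 of 7475 by the authors' fold, and the untreated peak at chr11:44769623-44769774 had 7 and ranked 395 of 3256. Their summits were 80 bp apart, the induced one 151523 bp from the nearer end of a gene of 390.0 kb. Enrichment over background was 69.0-fold in the induced and 63.7-fold in the untreated library, a ratio of 1.08 (95% interval 0.427 to 3.09). The libraries did not differ there beyond counting error. Further Ebf1 summits of 6 and 8 fragments were in the induced list alone, where 2.68 and 3.57 would have been expected in the untreated library.

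Egr2, a zinc finger factor of the first hours of fat cell formation, held a summit in both libraries close to RefSeq starts inside its annotated span. The induced peak at chr10:67537536-67537929 had 8 fragments, and its summit lay 88 bases before the nearest RefSeq start. The untreated peak, at chr10:67537665-67537832, had 5 fragments. Its summit lay 98 bp from the induced one and 117 bases after another RefSeq start. The ratio of enrichment was 0.714 (0.206 to 2.77). The induced list also had summits of 6 fragments inside Egr2, of 5 fragments 4439 bp outside it and of 4 fragments 6858 bp outside, the last of them 91 bp from an end of Ado.

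Stat5b, a transducer of growth hormone and cytokine signals, had an induced peak of 8 fragments at chr11:100791595-100791904 and an untreated peak of 3 fragments at chr11:100793140-100793272. These did not overlap. Its neighbour Stat5a, the gene of a close relative, had no summit within 50 kb in any list. Rxra, the gene of a retinoid X receptor that pairs with PPARγ, had an induced peak of 5 fragments inside (chr2:27740388-27740535) and an untreated one of 4 fragments 22690 bp outside, where Rxra was the nearest coding gene. Rxrg, of the same receptor family, had none within 50 kb.

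Klf5, encoding a Krüppel-like factor of early fat cell formation, was the 1 transcription factor gene with a summit at an end of its annotated span. The untreated peak at chr14:99299216-99299347 had 3 fragments, the lowest number called in that library, and a −log10 q of 1.45. Scaled to the induced library it came to 6.72 fragments, above the 4 of the weakest induced peak, and no induced peak was listed within 50 kb of Klf5. Mlxipl, encoding the carbohydrate sensor ChREBP, had peaks of 9 induced and 3 untreated fragments 47.4 and 48.0 kb away, both beside Baz1b. Nr1h3, the gene of the oxysterol receptor LXRα, had an untreated summit of 3 fragments 4632 bp away, inside Acp2.

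Within 50 kb 5 of the 15 transcription factor genes had an induced summit, or 33.3% (15.2 to 58.3), against 39.9% of coding genes. In the untreated list 7 had one, or 46.7% (24.8 to 69.9), against 23.5%. In either ZFP410 list 45.3% of coding genes had one, so its absence was common. The remaining 8 transcription factor genes had no summit within 50 kb in any library: Klf4, Klf9 and Klf15, Krüppel-like factors that promote fat cell formation, Stat5a, Zfp423, Zfp467, a zinc finger factor of fat and bone cell fate, Srebf1 and Rxrg. Srebf1, the gene of the main activator of lipid synthesis genes, lay 67.2 kb from the nearest induced and 67.3 kb from the nearest untreated summit. Zfp423, the gene of a factor of preadipocyte commitment, is 300.2 kb long and held no summit. Klf9 lay furthest from an induced summit among these, at 633.2 kb.

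Genes of lipid enzymes and droplet proteins were listed more often in the induced than in the untreated library. In the induced list 3 of 18 had a gene-end summit and 4 a summit inside, together 7 or 38.9% (20.3 to 61.4), against 15.8% of coding genes. In the untreated list 1 had a gene-end summit and 0 a summit inside, together 5.56% (0.988 to 25.8), against 7.82% of coding genes. Both intervals run over the same 18 genes, so they do not test whether the libraries differ. All 6 of these genes listed in the induced library alone held 5 to 9 fragments, or 2.23 to 4.02 expected in the untreated library, whose lowest called number was 3. Fabp4, at 2.23, fell below that number, and Fasn, Dgat2, Acaca, Cd36 and Gpam, at 3.57 to 4.02, stood at most about 1 fragment above it. A cut at 27 times the genome background could remove induced peaks only, since the weakest untreated peaks already stood at 27.3 times. With it 6 of the 18 were listed in the induced library at an end or inside, against 10.2% of coding genes. The untreated library kept its 1, against 7.82%.

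**Figure D3:**
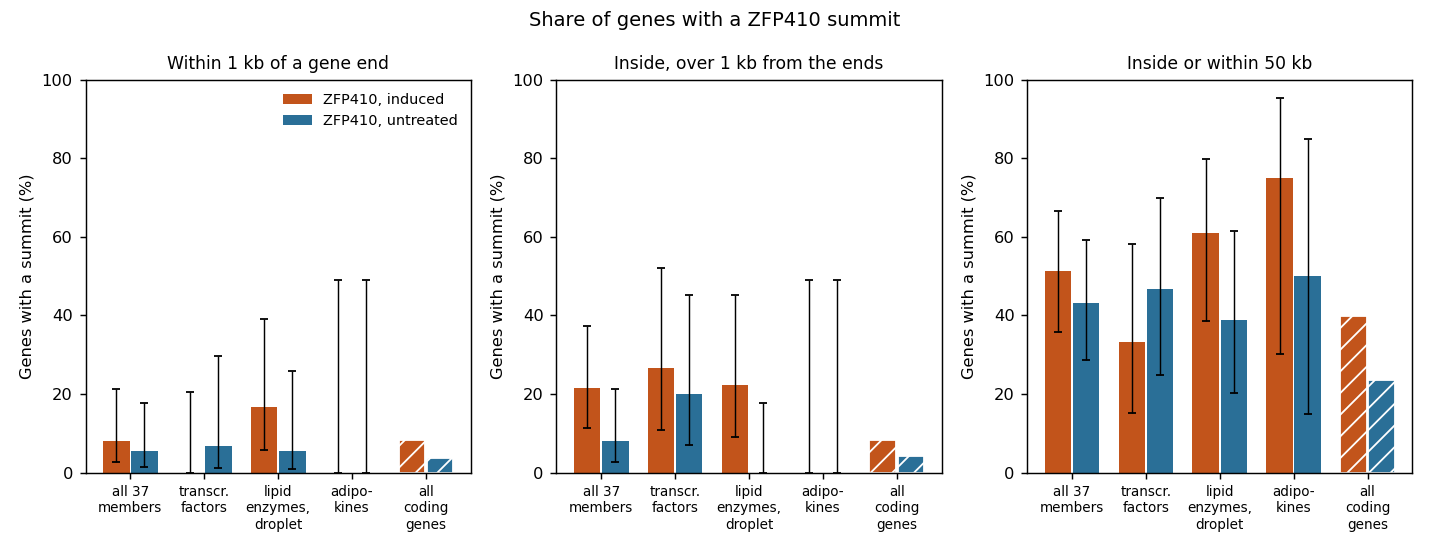
Share of genes (%) with a ZFP410 summit at a gene end (left), inside (middle) and inside or within 50 kb (right), in the induced and the untreated list; bars with 95% Wilson intervals are member classes, hatched bars all coding genes. Gene-end shares of the 37 members, 8.11% induced and 5.41% untreated, lie near those of all coding genes, 8.43% and 3.73%.

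The gene-end summits of this class were at Dgat1, Dgat2 and Fasn. Dgat1, 1 of a pair of unrelated enzymes for the last step of triglyceride synthesis, had peaks with the same summit base in both libraries, 159 bp inside the upper end of the gene. The induced peak (chr15:76511811-76512278) had 7 fragments and the untreated one (chr15:76511696-76511956) 3. The ratio was 1.04 (0.238 to 6.24). Dgat2, the other enzyme of that step, had an induced peak of 9 fragments 91 bp beyond its upper end (chr7:99182766-99183044), where 4.02 would have been expected in the untreated library, and no untreated one there. Fasn, the fatty acid synthase gene, had an induced peak of 8 fragments (chr11:120824221-120824619), whose summit lay 41 bases after the RefSeq start shown above. Scaled to the untreated library it came to 3.57. An untreated peak of 3 fragments 14532 bp from Fasn lay inside Dus1l.

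The strongest site near any member lay on the far side of Dgat2, in a group of 3. Induced peaks of 30, 20 and 16 fragments had summits 13712, 12307 and 10154 bp below the gene. The first (chr7:99139797-99140270) ranked 78 of 7475 with an authors' fold of 24.9. It overlapped an untreated peak of 7 fragments (chr7:99139893-99140242), which ranked 395 of 3256. The ratio was 1.91 (0.823 to 5.16), the highest of the member sites, with an interval that included 1. The first summit lies inside Uvrag, a gene of autophagy and membrane traffic, and the other two lie 189 and 2342 bp from its end, so these sites are closer to Uvrag than to Dgat2. The peak of 20 fragments stood over a local background of 1.95 fragments, against 0.246 for the genome.

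**Figure D4:**
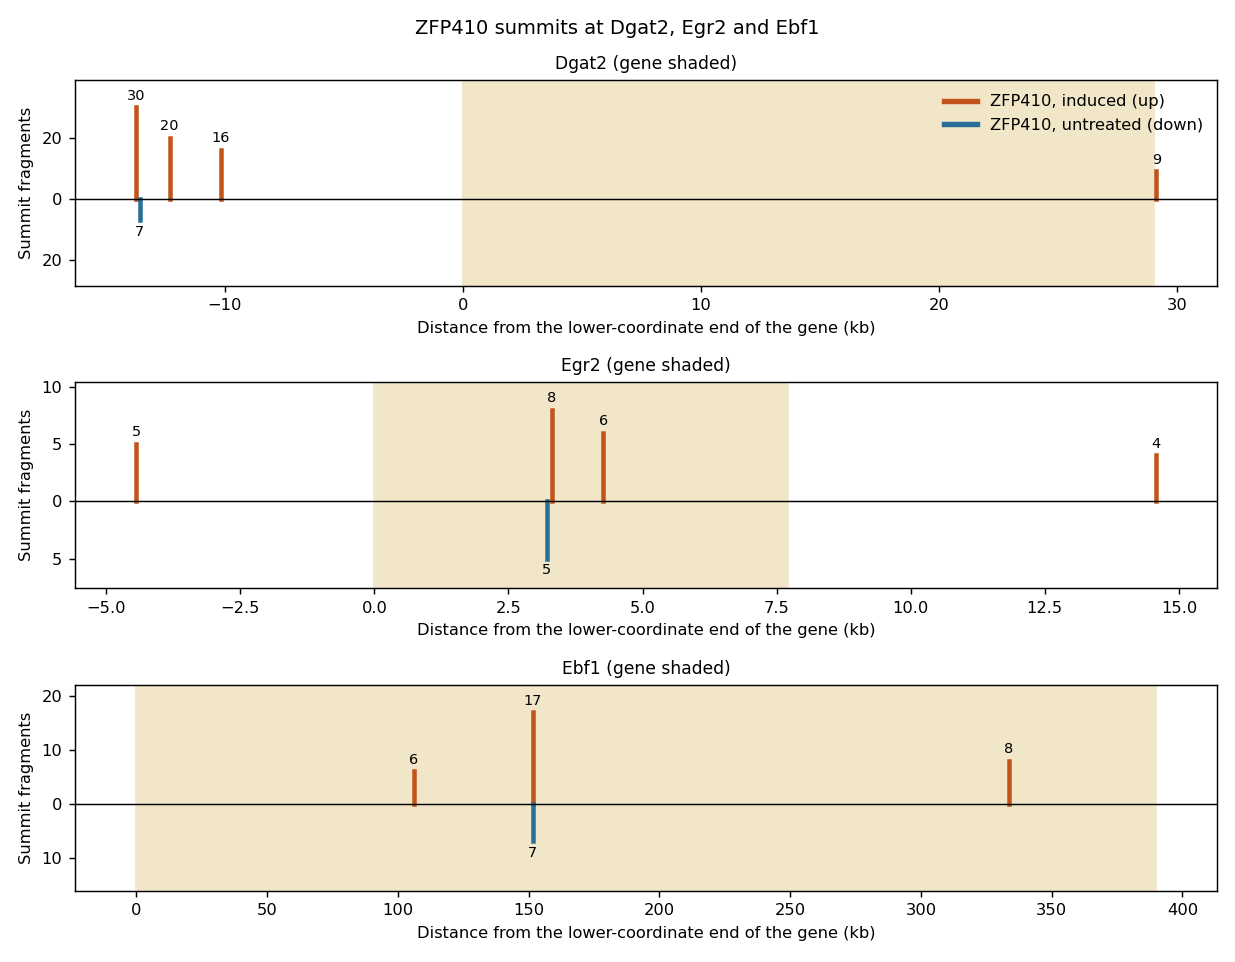
Summit fragments (induced upward, untreated downward) against distance in kb from the lower-coordinate end of Dgat2, Egr2 and Ebf1, with the gene shaded. At Dgat2 the induced summits of 30, 20 and 16 fragments lie outside the gene and the gene-end summit has 9.

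Acaca, Gpam, Cd36 and Fabp4 had summits inside the gene in the induced list alone. Acaca, encoding acetyl-CoA carboxylase of the committed step of fatty acid synthesis, had 9 fragments at chr11:84179495-84179699. Gpam, the gene of the mitochondrial enzyme that starts glycerolipid synthesis, had 8 inside (chr19:55103098-55103599) and 8 at a site 12034 bp outside. Cd36, a fatty acid transporter gene, had 8 fragments (chr5:17804200-17804402). Fabp4, the gene of the fatty acid carrier typical of fat cells, had 5 (chr3:10206862-10207119), with a summit 1740 bp from its nearer end, the closest inside summit to miss the 1 kb window. Among gene-end summits the one at Fasn lay deepest, 660 bp from the end.

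Scd1, the gene of the desaturase that makes monounsaturated fatty acids, had an induced peak of 9 fragments 14705 bp away (chr19:44422324-44422475), with no coding gene nearer. Agpat2, of phosphatidic acid synthesis, had an untreated summit of 3 fragments 20222 bp away and none in the induced list. Pck1, of glycerol supply from pyruvate, had none within 50 kb. Lpl, the gene of the lipase that frees fatty acids from blood lipids, had an untreated summit of 3 fragments 46137 bp away.

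Lipolysis and droplet genes had no summit at an end or inside in any library, 0 of 2 and 0 of 5, where 15.8% of coding genes had one in the induced and 7.82% in the untreated list, so that counts of 0 in groups this small say little. Pnpla2, encoding the first triglyceride lipase, had an induced summit of 7 fragments 16306 bp away inside Tspan4 and an untreated one of 4 fragments 7820 bp away inside Pidd1. Lipe, encoding hormone-sensitive lipase, lay 57.5 kb from an induced and 62.8 kb from an untreated summit, just outside the 50 kb bound. Plin1, the main perilipin gene of fat cells, lay just inside it, with overlapping peaks of 24 induced and 8 untreated fragments 48.2 kb away inside Wdr93, a ratio of 1.34 (0.582 to 3.45). Bscl2, encoding seipin of droplet assembly, had an induced summit of 13 fragments 17722 bp away at Hnrnpul2, over a high local background of 3.66 fragments. Plin2, Plin4 and Plin5, of the other perilipins, had none.

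The 4 genes of secreted fat cell products had no summit at an end or inside, against 15.8% of coding genes in the induced and 7.82% in the untreated list, a count that again says little in so small a group. Adipoq, the adiponectin gene, had an induced summit of 6 fragments 9358 bp away, where it was the nearest coding gene. A second site, beside Rfc4, had 8 induced and 3 untreated fragments 18.6 kb from Adipoq, a ratio of 1.19 (0.286 to 6.97). Cfd, encoding adipsin, had an induced summit of 7 fragments 16245 bp away at Med16. Retn, the resistin gene, had 7 induced fragments 34363 bp away at Xab2 and untreated summits of 3 fragments at 16419 and 32397 bp. Lep, the leptin gene, lay 122.0 kb from the nearest induced summit.

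Sites carried in both lists showed no difference beyond counting error. The 6 overlapping pairs within 50 kb of members, at Dgat2, Plin1, Adipoq, Ebf1, Dgat1 and Egr2, had ratios between 0.714 and 1.91, induced over untreated, and all 6 intervals included 1. Over 1300 overlapping pairs of low local background in the full lists the median ratio was 0.829 (quartiles 0.625 and 1.17). The Plin1 site exceeded the low-background limit of 2 times the genome background. With 3 to 8 untreated fragments at each site, the intervals also allow several-fold differences.

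**Figure D5:**
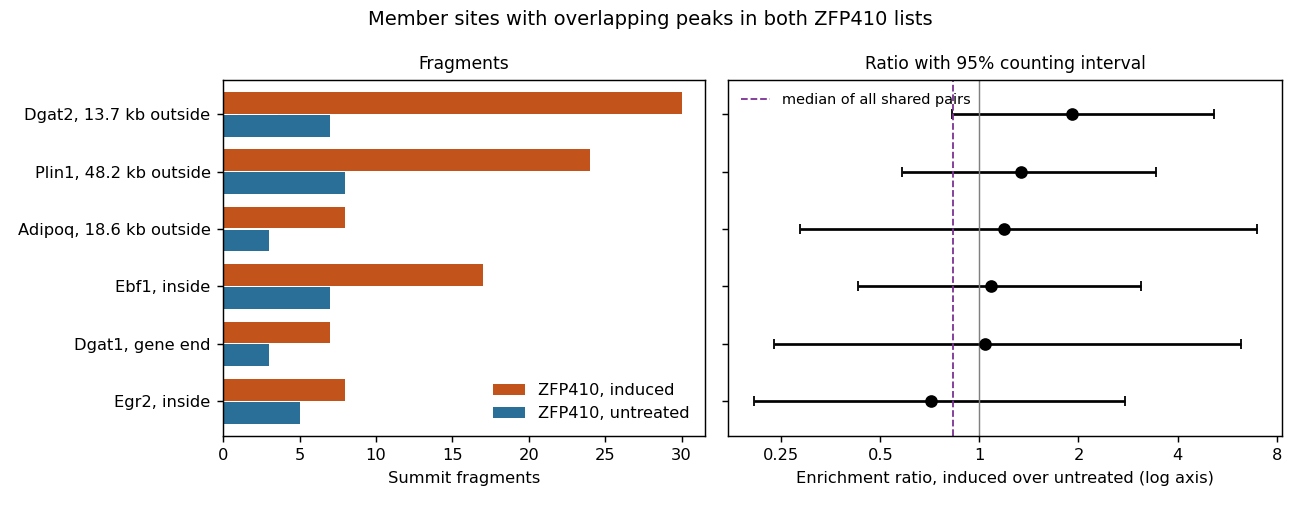
Summit fragments (left) and the ratio of enrichment, induced over untreated, with 95% exact binomial counting intervals on a log axis (right), for the 6 member sites with overlapping peaks. The ratios run from 0.714 at Egr2 to 1.91 beside Dgat2, every interval includes 1, and the dashed line is the median of all shared pairs, 0.829.

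IgG gave no summit within 50 kb of any member. The nearest IgG summit was 2036 kb from the median member. The IgG library was shallow: the strongest member site, of 30 induced fragments beside Dgat2, would have held 2.81 there, and the 8 of Fasn 0.749, against a lowest called number of 2. The IgG list thus says little on weak sites.

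A list of 60 further genes of fat cell formation and lipid metabolism was set beside the members. At gene ends 7 had an induced summit, or 11.7% (5.77 to 22.2), against 8.43% of coding genes, and 4 an untreated one, or 6.67% (2.62 to 15.9), against 3.73%. Cebpa, the gene of a master factor of fat cell differentiation, led with 22 induced and 6 untreated fragments, a ratio of 1.64 (0.644 to 4.93). Gpd1, which supplies glycerol 3-phosphate, had 14 induced and 5 untreated fragments, a ratio of 1.25 (0.425 to 4.43), and Klf7 had 10 and 7, a ratio of 0.638 (0.219 to 1.97). Acss2, of acetyl-CoA supply, had 12 fragments and Acsl1, of fatty acid activation, 10 in the induced list alone, as did Gpat4 and Fitm1 with 5 each. Cebpd had 4 in the untreated list alone. No gene-end summit was listed at Pparg in any library. Inside the gene 7 of the 60 had an induced summit, or 11.7% (5.77 to 22.2), against 8.21% of coding genes. In the untreated list 3 had one, or 5.00% (1.71 to 13.7), against 4.36%. Both of these inside-gene intervals included the share of all coding genes. Within 50 kb 32 of the 60 had an induced summit, or 53.3% (40.9 to 65.4), against 39.9% of coding genes. In the untreated list 25 had one, or 41.7% (30.1 to 54.3), against 23.5%. These intervals lay above the shares of all coding genes. The list was chosen with earlier results of these data known, so they do not test for an excess.

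Stricter settings were set beside the same settings over all coding genes. Of peaks with a −log10 q of 5 or more, the induced list kept Fasn, Dgat1 and Dgat2 at gene ends, where 4.42% of coding genes were kept. Inside the gene it kept 6, all but Fabp4 and Rxra, against 4.87% of coding genes. The untreated list kept 0 members at gene ends and Ebf1 alone inside, against 1.00% and 1.40% of coding genes. Inferred depth differs between the libraries, and a common enrichment of at least 27 times the genome background was added as a setting after seeing the data. The lowest called untreated number, 3 fragments, already came to 27.3 times that background. The setting could thus remove no untreated peak and acted on the induced list alone. At gene ends the 3 induced members stayed, against 5.22% of coding genes, and the untreated list kept its 2, against 3.73%. Inside the gene 6 of the 8 induced members stayed, against 5.36% of coding genes, and the untreated list kept its 3, against 4.36%.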

How the data were processed

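CUT&Tag peak lists of 3 libraries, 1 per group, were analysed. Bowtie2 2.2.6, Picard and MACS2 2.1.1 were used on mm10, per the submitters' processing notes. For each peak the authors deposited a score, the summit's fold over its local background, its position, and −log10 values of p and q, and peak names carry a q of 0.1. Which control the caller received is not given in the sources used here. Fold and −log10 values are the authors' own and served only to describe, rank (ties share a rank) and filter peaks within a list. Summit fragments and local background were recovered from fold and −log10 p, within 0.001, for 7473 induced, 3255 untreated and 480 IgG peaks, a step tested on simulated data. PCR duplicates may inflate fragments. The genome background was 0.246, 0.110 and 0.0231 fragments. Relative depth was inferred from the step of 1 control fragment in the local backgrounds. It takes both ZFP410 lists to have been called against the same control, which could not be checked.

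Genes came from a table of GRCm38.p6 without strand, so either end counted, and all 37 symbols matched. Sequences are RefSeq's. Locations used the summit, and peaks overlapped when they shared at least 1 bp. Ratios have exact binomial, shares Wilson and densities exact Poisson 95% intervals. Members and lists were chosen with earlier results of these data known. Every member was named, with full values where a summit lay at an end or inside. Stricter q and fold, other windows, the RefSeq start, other overlaps and scaling by depth were tried. Exons and UTRs were not analysed here. Python 3.11.15, scipy 1.17.1 and pandas 2.3.3 were used.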

Additional observations from a re-analysis of the deposited data

How the results depend on the processing

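No paired analysis was possible because each group held 1 library. Induced gene-end (3) and inside (8) counts stayed within 1.5 times under every setting. At a −log10 q of at least 5, untreated counts were 0 at gene ends, 1 inside and 3 within 50 kb, counts in both lists 0, 1 and 3, and median distances 67.5 kb induced and 481.6 kb untreated; untreated transcription factor genes numbered 0 at ends and 1 at an end or inside, and lipid genes 0 and 0. At a fold of at least 5, untreated counts were 0 at gene ends, against 1.94% of coding genes, and 4 within 50 kb. Counts in both lists were then 0 and 4, the untreated distance 323.5 kb, transcription factor genes 0 and 2, and lipid genes 0 and 0. With a 500 bp window 1 untreated member (Dgat1) and 0 transcription factor genes were left at gene ends. By RefSeq starts, 31 genes with an entry gave 2 induced (Fasn, Egr2; 8.89% of coding genes) and 1 untreated (Egr2; 3.94%). Within 100 kb 20 members were in both lists. As the same peak, 6 were in both within 50 kb, and with 50% overlap of both peaks 0 at ends, 0 inside and 2 within 50 kb. Under these changed settings no share of all coding genes is given for counts within 50 or 100 kb, in both lists or at 500 bp. Those counts show how the settings act and not whether members exceed other genes. Scaled by depth, the 6 ratios ran from 0.796 to 2.13, within their intervals. Depth limits these counts: most member sites held under 10 fragments.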
